A study of Homo sapiens with 18 samples.

Results

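The promoters of 6 genes for cyclin-dependent kinase (CDK) inhibitors were followed in 3 established human cancer cell lines, the colorectal carcinoma line HCT15 and the prostate cancer lines DU145 and PC3. The genes were CDKN2A, CDKN2B, CDKN2C, CDKN2D, CDKN1A and CDKN1B, 6 of 20163 protein-coding genes of the annotation. DNA of each line was measured once by reduced representation bisulfite sequencing (RRBS), which reads the methylation of single CpGs near restriction sites, and once with each of 5 methyl-CpG-binding domain (MBD) capture kits, MethylMagnet, MethylCollector, MethylCollector Ultra, MethylCap and MethylMiner, followed by sequencing (MBD-seq). No line was treated, and a group was a single library of 1 cell line and 1 assay or kit, with 3 RRBS and 15 MBD-seq libraries in all. The members were the RRBS CpGs with at least 10 reads within 1 kb either side of each gene's 5′ end on GRCh37. CDKN2A entered with both of its first exons, those of p16INK4a and p14ARF, which gave 7 windows of 2001 bp. These windows held 240 of the 2195724 such CpGs of HCT15, 214 of 2398973 in DU145 and 230 of 2377143 in PC3.

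CDK inhibitors hold back the cell cycle before DNA is copied. The INK4 proteins, encoded by the CDKN2 genes, bind CDK4 and CDK6 and keep them from their cyclins, whereas the CIP and KIP proteins, encoded by the CDKN1 genes, bind complexes of cyclins with CDK2. CDKN2A also encodes p14ARF from a separate first exon and another reading frame, a protein that binds MDM2, and its p16INK4a promoter is a classical site of CpG island methylation in tumours.

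Stretches just upstream of the 2 CDKN2A starts are shown because HCT15 was partly methylated in them, and a CDKN2D stretch because its CpGs outside the palindromes CCGG and TCGA were at 3.24% or less in all 3 lines. The sequences are from the GRCh37 reference in the direction of transcription (minus strand). The capitals mark the CpGs that RRBS covered with at least 10 reads in at least 1 line. All 3 stretches lie upstream of the start used and overlap 0 annotated UTR bases. The p16INK4a stretch (chr9:21974916-21975201, in an intron of the p14ARF transcript) held 18 CpGs, of which 11 were measured. The p14ARF stretch (chr9:21994531-21994811, within the spans of longer CDKN2A transcripts and of the lncRNA gene CDKN2B-AS1 on the opposite strand) held 32, of which 12 were measured, and in the CDKN2D stretch (chr19:10679750-10679910) all 22 were measured.
p16INK4a upstream: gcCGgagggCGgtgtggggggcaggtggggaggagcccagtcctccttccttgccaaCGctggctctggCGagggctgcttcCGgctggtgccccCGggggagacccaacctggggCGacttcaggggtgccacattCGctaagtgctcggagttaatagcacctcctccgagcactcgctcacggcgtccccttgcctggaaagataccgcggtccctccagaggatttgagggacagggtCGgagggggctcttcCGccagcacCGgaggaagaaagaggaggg
p14ARF upstream: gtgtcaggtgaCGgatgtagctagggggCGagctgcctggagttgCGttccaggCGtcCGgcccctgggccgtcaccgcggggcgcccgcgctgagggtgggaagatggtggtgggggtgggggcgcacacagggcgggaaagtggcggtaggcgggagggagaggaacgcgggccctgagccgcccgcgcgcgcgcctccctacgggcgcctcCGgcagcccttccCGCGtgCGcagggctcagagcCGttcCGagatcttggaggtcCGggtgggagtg
CDKN2D upstream: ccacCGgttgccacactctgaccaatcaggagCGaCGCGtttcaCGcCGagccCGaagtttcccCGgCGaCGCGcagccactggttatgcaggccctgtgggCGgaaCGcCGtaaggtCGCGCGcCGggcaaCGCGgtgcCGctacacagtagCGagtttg

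RRBS coverage summed over all CpGs, where a read counts at every CpG it covers, was 72638326, 130667913 and 93623967 (HCT15, DU145 and PC3), and the CpGs used had a median coverage of 23, 33 and 26 reads. The MBD-seq libraries held 10040 to 7344098 fragments. If these had been spread evenly over the genome, a window would have received 0.00757 fragments in the smallest library (DU145 with MethylMagnet) and 5.62 in the largest (HCT15 with MethylMiner). The SD given with an RRBS level is the spread between the CpGs of a window and not between replicates, and neighbouring CpGs were often read by the same reads. Intervals are 95% Wilson intervals for shares of reads and 95% exact Poisson intervals for fragments, and cover counting error only. Every test between lines compared libraries, since no line had a second RRBS library and no kit was applied to a line more than once.

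One property of the RRBS values bears on all windows with measured CpGs and is given first. CpGs inside the palindromes CCGG and TCGA, the sites of enzymes commonly used for RRBS, read intermediate values also in windows where all other CpGs were near 0. Around the canonical start of CDKN1B in HCT15, for example, the 12 palindrome CpGs averaged 52.4% ± 23.1 and the other 47 CpGs 1.14% ± 2.40. Over all promoters in which the other CpGs averaged at most 5%, the CCGG CpGs of a promoter averaged 51.3%, 52.0% and 51.8% (HCT15, DU145 and PC3) and the TCGA CpGs 54.6%, 55.3% and 55.1%. CCGG occurred in 93.5% and TCGA in 83.4% of the 20163 promoter windows. Both sequences are their own reverse complements, so that each strand holds them. The enzyme used is not given in the sources used here, and the cause was not tested. Each level is therefore given over all CpGs, as chosen, and over the CpGs outside these palindromes, called the other CpGs below; this split was made after seeing the data.

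**Figure D1:**
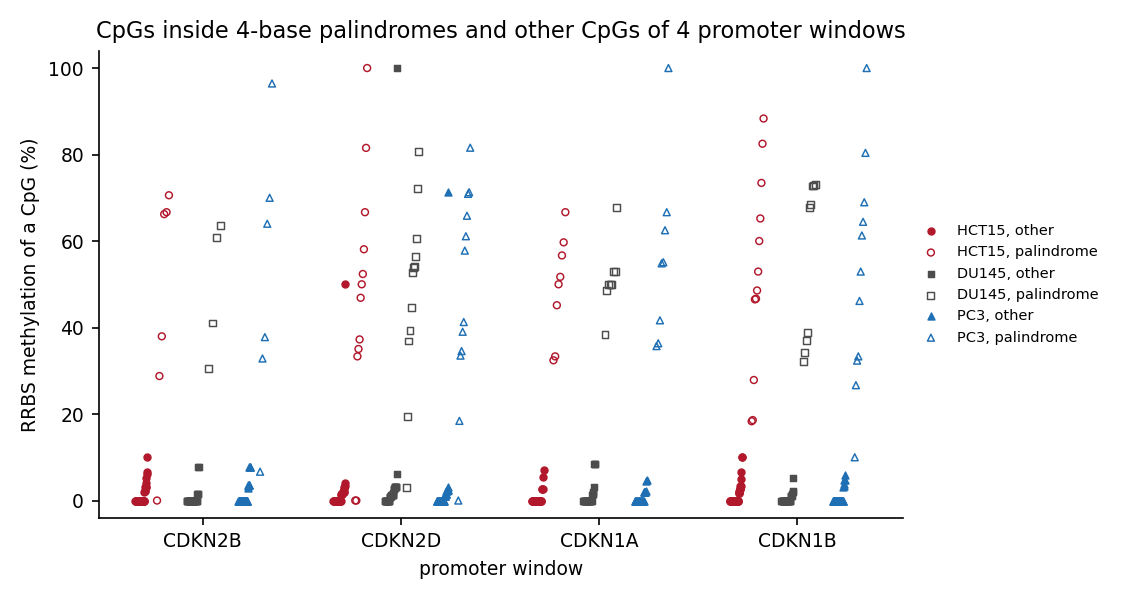
RRBS methylation of each CpG (y axis, percent) in 4 windows with little methylation (x axis; CDKN1A and CDKN1B at their canonical starts), by cell line (colour and shape), with open points for CpGs inside CCGG or TCGA and filled points for other CpGs. The 12 palindrome CpGs of CDKN1B in HCT15 averaged 52.4%, whereas the other CpGs lay near 0 except 1 of CDKN2D.

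At the p16INK4a start (chr9:21973856-21975856, start at 21974856, minus strand), HCT15 and PC3 were methylated and DU145 was not. HCT15 averaged 88.4% ± 17.2 over 37 CpGs, DU145 15.3% ± 24.3 over 33 and PC3 98.8% ± 3.58 over 26. Over the other CpGs the levels were 89.9% (26 CpGs), 1.16% (23 CpGs) and 99.1% (16 CpGs). The 23 other CpGs of DU145 were at 9.38% or less, and the lowest other CpG was at 33.3% in HCT15 and at 95.5% in PC3.

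The methylation of p16INK4a in HCT15 was uneven along the window. In its first exon, from +13 to +89 (distances run from the start in the direction of transcription, and are those of the C on the plus strand), the 9 other CpGs averaged 96.1% ± 4.26 in HCT15, 0.358% ± 1.08 in DU145 and, over 6 CpGs, 98.3% ± 2.01 in PC3. The 7 other CpGs of the intron from +674 to +900 averaged 88.7% ± 14.0 in HCT15 and 99.4% ± 1.68 in PC3, and 8 such CpGs averaged 0.974% ± 1.82 in DU145. Upstream, from -335 to -275, the 3 other CpGs were at 52.8% ± 17.3 in HCT15, 5.21% ± 3.61 in DU145 and 100% in PC3. The lowest CpG of HCT15, at -287, had 4 of 12 reads methylated (13.8 to 60.9%), where PC3 had 23 of 23 (85.7 to 100%). Between these stretches, from -228 to -9, 7 other CpGs of HCT15 averaged 99.2% ± 2.22, DU145 had 0 of 20 reads methylated at each of 3 such CpGs, and PC3 reached 10 reads at none.

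At the p14ARF start (chr9:21993391-21995391, start at 21994391, minus strand), 19535 bp further upstream, only HCT15 carried methylation outside the palindromes. HCT15 averaged 61.3% ± 33.3 over 17 CpGs, DU145 13.3% ± 27.3 over 24 and PC3 14.3% ± 23.6 over 18, and the other CpGs averaged 55.4% (13 CpGs), 0.0703% (18 CpGs) and 0.695% (13 CpGs). PC3, with the most methylated p16INK4a window of the 3 lines, thus had 0 of 13 other CpGs above 2.63% at p14ARF.

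The HCT15 methylation of p14ARF was lower farther upstream of the start. From -192 to -166, 5 other CpGs averaged 96.5% ± 1.97 in HCT15, against 0.253% ± 0.566 in DU145 and 1.81% ± 1.16 in PC3. From -512 to -365, 8 other CpGs of HCT15 averaged 29.8% ± 9.59, between 15.4 and 38.5%, at 13 reads each, while each of these CpGs had 0 of 16 reads methylated in DU145 and 0 of 18 in PC3, which allows a CpG up to 19.4% and 17.6% (Wilson). Beyond the window, from -1551 to -1342, the 15 other CpGs averaged 1.75% ± 2.31 in HCT15, 1.07% ± 1.55 in DU145 and 1.30% ± 2.23 in PC3. Downstream of the start HCT15 had no covered CpG within 500 bp. The window mean of HCT15 therefore turned on coverage: with at least 20 reads it was 94.5% over 8 CpGs, and over 2 kb either side 35.7%.

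**Figure D2:**
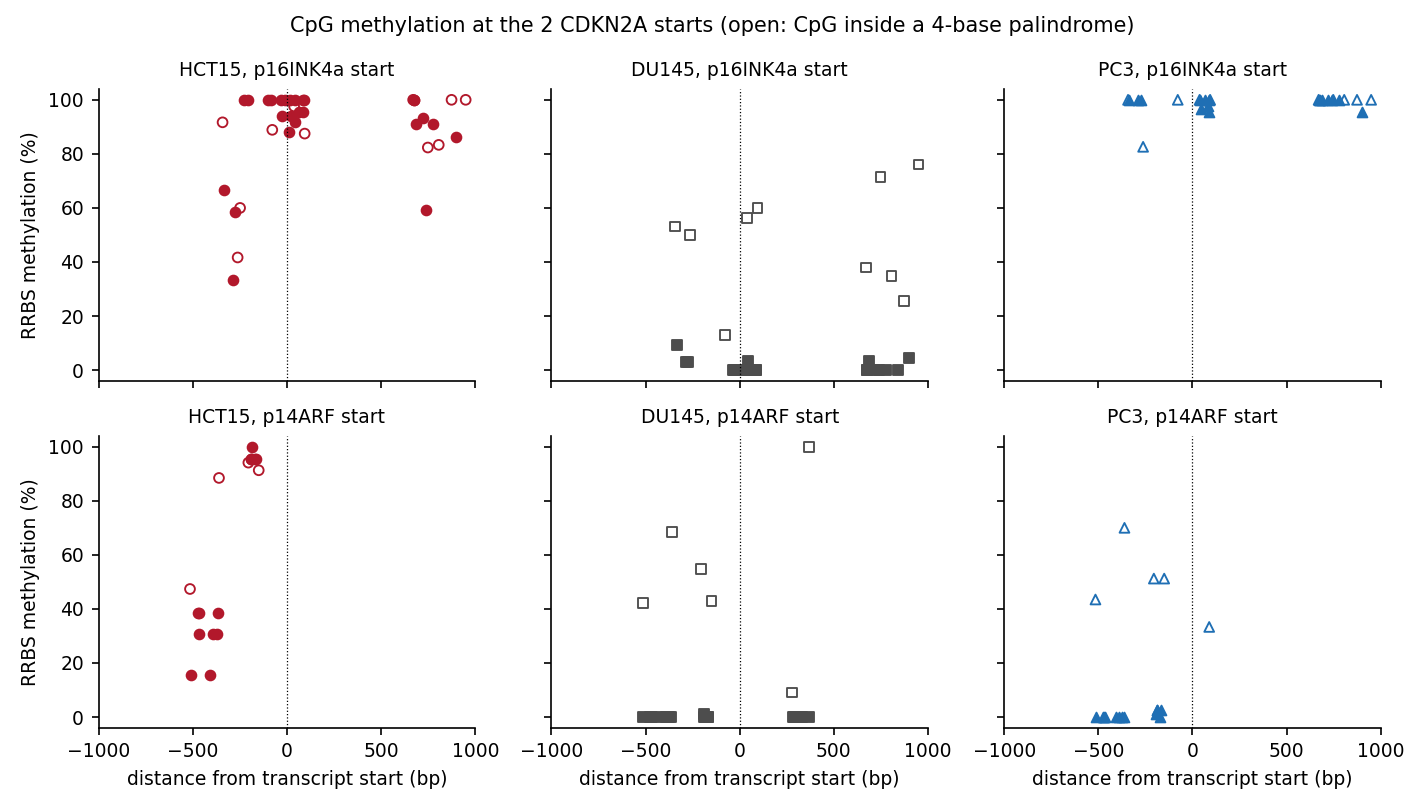
RRBS methylation of each CpG with at least 10 reads (y axis, percent) against its distance from the start in bp (x axis, upstream negative), for p16INK4a (upper row) and p14ARF (lower row) in the 3 lines; open points are CpGs inside CCGG or TCGA. The filled points at p16INK4a lie at 33.3% or more in HCT15, 95.5% or more in PC3 and 9.38% or less in DU145, and at p14ARF only HCT15 has filled points above 2.63%.

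CDKN2B, which encodes the INK4 protein p15INK4b, starts 14913 bp from p14ARF (chr9:22008304-22010304, start at 22009304, minus strand). Its window was unmethylated in all 3 lines, at 6.23% ± 17.0 over 51 CpGs in HCT15, 5.69% ± 15.8 over 38 in DU145 and 7.04% ± 19.3 over 51 in PC3. The other CpGs averaged 1.06%, 0.595% and 1.14%, and 0 of 45, 34 and 45 exceeded 10%. All 51 CpGs measured lay in the first exons of its transcripts, 22 in UTR and 29 in coding sequence, so the levels describe these exons and not the sequence upstream.

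The neighbourhood of these 3 starts on chromosome 9 was described with intervals chosen after their values were seen. Between the p16INK4a and p14ARF windows, 14 other CpGs of HCT15, 8 of DU145 and 8 of PC3 averaged 94.7% ± 8.65, 96.9% ± 2.89 and 97.4% ± 3.78. DU145 was thus methylated between 2 windows in which its other CpGs were near 0. Between the p14ARF and CDKN2B windows, the same number of 4 of 19 CpGs was at 50% or more in each line. The locus is flanked by MTAP and DMRTA1, both on the list of other genes given at the end. MTAP, a methionine salvage enzyme 172221 bp from p16INK4a, was unmethylated at its start in all 3 lines (0.690%, 0.755% and 0.690% over 5, 14 and 10 other CpGs). DMRTA1, a transcription factor gene 437519 bp beyond CDKN2B, averaged 88.2% ± 15.1 over 14 other CpGs in HCT15, 0.596% ± 2.27 over 31 in DU145 and 5.53% ± 14.4 over 26 in PC3.

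**Figure D3:**
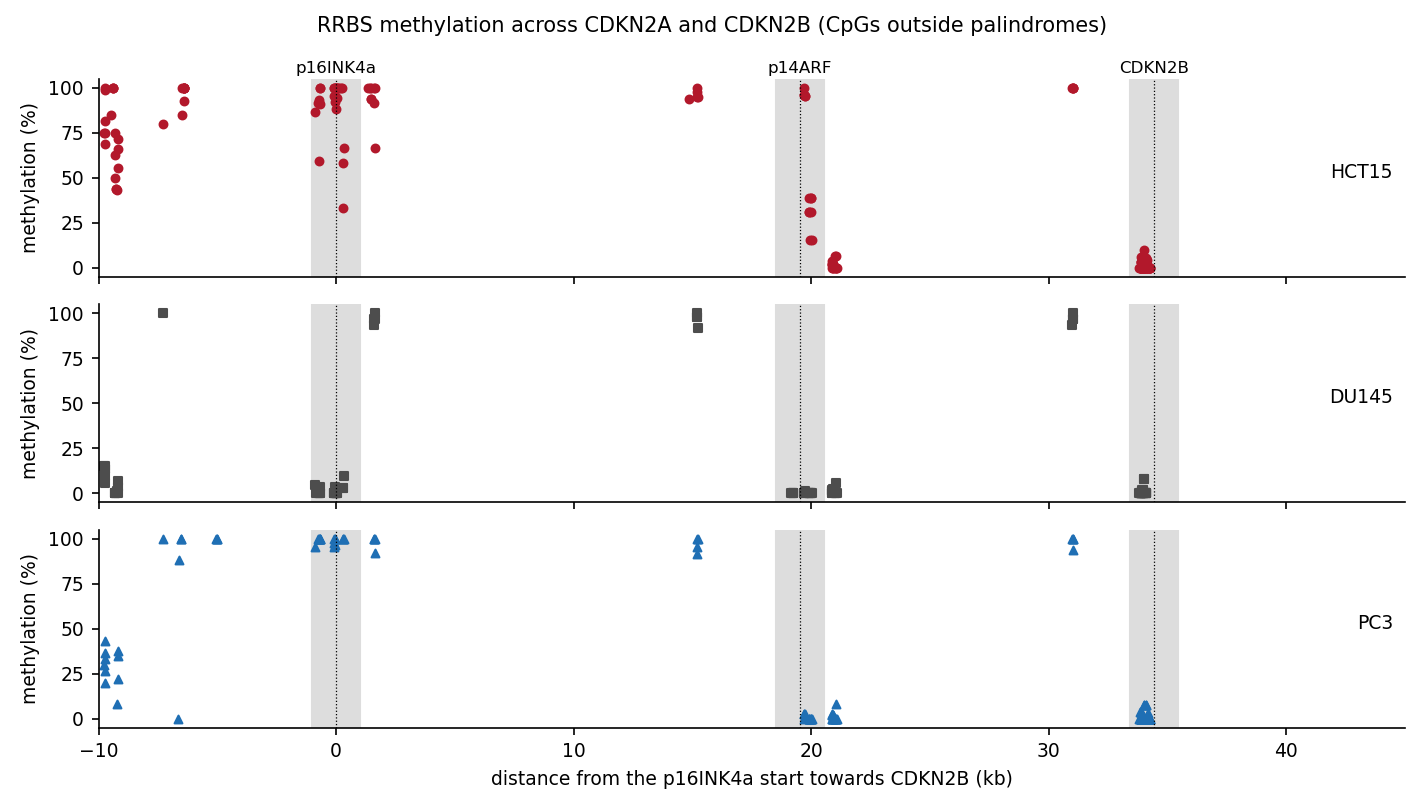
RRBS methylation of other CpGs (y axis, percent) against distance from the p16INK4a start in kb (x axis), 1 panel per line; grey bands are the 3 windows and dotted lines the starts. The bands of p16INK4a are filled mostly at the top in HCT15, at the top in PC3 and at the bottom in DU145. That of p14ARF runs from 15.4 to 100% in HCT15, with 5 of 13 CpGs at 50% or more, and stays at 2.63% or less in the other lines. That of CDKN2B is at 10% or less in each line.

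CDKN2C, the gene of the INK4 protein p18INK4c, was examined around 3 of its annotated starts, which differed in level. Around the start of the gene record (chr1:51425417-51427417, start at 51426417, plus strand), HCT15 averaged 26.7% ± 39.9 over 81 CpGs, DU145 31.7% ± 41.8 over 65 and PC3 25.7% ± 38.7 over 81. The window joined an unmethylated and a methylated part in every line. The part upstream, which holds the start of FAF1 on the opposite strand at -478, averaged 0.992% ± 2.82 over 55 other CpGs in HCT15, 0.805% ± 1.04 over 40 in DU145 and 0.751% ± 1.33 over 55 in PC3. In the intron from +351 to +572, 12 other CpGs averaged 95.2% ± 6.02, 97.5% ± 5.78 and 94.96% ± 4.12. Around the 2 later starts the windows were nearly unmethylated: the other CpGs averaged 0.735%, 0.497% and 0.646% at the start of transcript CDKN2C-203, 7961 bp downstream, and 0.563%, 0.952% and 0.455% at that of the canonical transcript, 9500 bp downstream.

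CDKN2D, the gene of the INK4 protein p19INK4d (chr19:10678735-10680735, start at 10679735, minus strand), was covered by 54 CpGs in each line, at 11.9% ± 24.01 in HCT15, 13.4% ± 24.9 in DU145 and 12.5% ± 24.1 in PC3. Of the 42 other CpGs, 41 averaged 0.788% ± 1.14, 1.27% ± 1.39 and 0.645% ± 0.985. The remaining CpG, at -885, was at 50% in HCT15 (6 of 12 reads), 100% in DU145 (14 of 14) and 71.4% in PC3 (10 of 14).

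For the CIP and KIP genes, the window of the gene record held no CpG with 10 reads in any line. That of CDKN1A (p21CIP1; chr6:36643237-36645237, start at 36644237, plus strand) held 22 CpGs in the reference and that of CDKN1B (p27KIP1; chr12:12837432-12839432, start at 12838432, plus strand) 11, against 102 to 147 in the other 5 windows. Their canonical transcripts start 2254 and 31870 bp downstream, in CpG-rich sequence. There CDKN1A averaged 11.3% ± 21.1, 12.0% ± 21.3 and 12.8% ± 25.1 in HCT15, DU145 and PC3 over the same number of 37 CpGs, and its 29 other CpGs 0.715%, 1.197% and 0.682%. CDKN1B averaged 11.6% ± 23.2 over 59 CpGs, 12.2% ± 24.2 over 42 and 11.1% ± 23.96 over 54, and its other CpGs 1.14%, 0.465% and 0.593%. No other CpG exceeded 10% at either start.

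**Figure D4:**
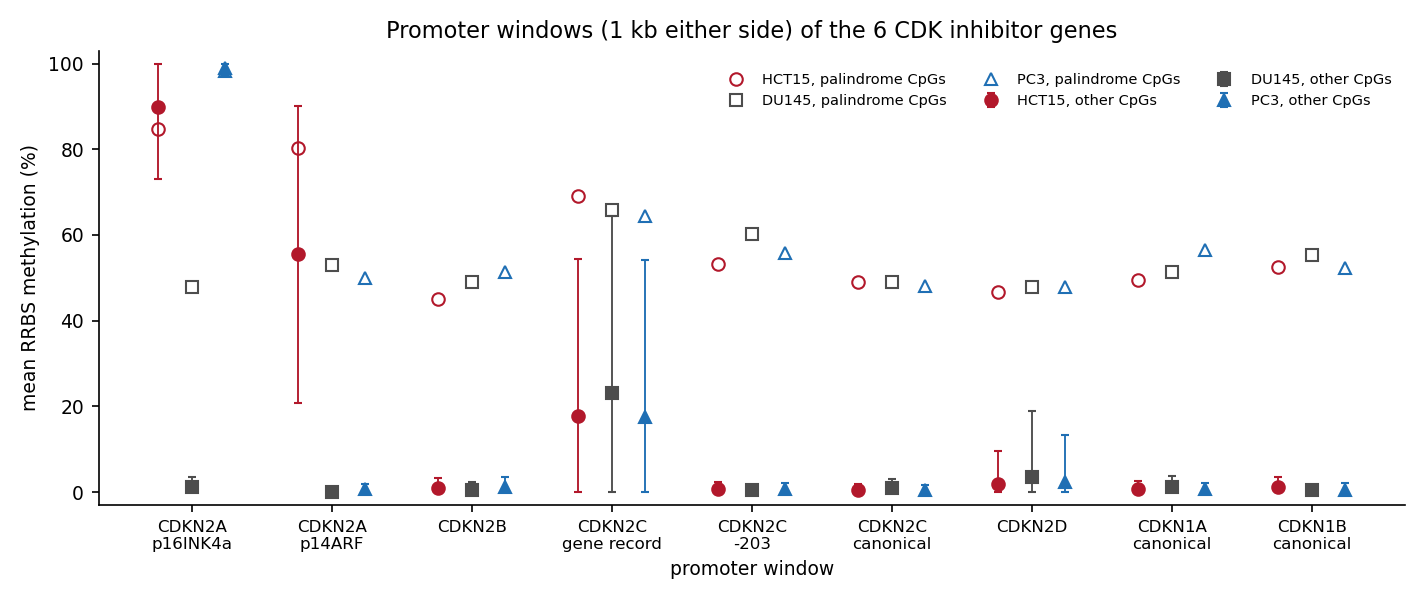
Mean RRBS methylation of a window (y axis, percent) for the windows and added starts (x axis) in the 3 lines. Filled points are the means of the other CpGs with the SD between CpGs as bars, limited to 0 and 100%, and open points the means of CpGs inside CCGG or TCGA; only the CDKN2A windows separate the lines by 20 points or more, with HCT15 at 89.9%, DU145 at 1.16% and PC3 at 99.1% at p16INK4a.

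Windows were called different between lines when their means over CpGs covered in both lines differed by at least 20 percentage points, with no test since each line was measured once. Of the 5 windows with at least 5 such CpGs, 2 were called between HCT15 and DU145, where 15.9% of 13695 promoters passed in either direction. The p16INK4a window differed by 72.1 points (87.9 against 15.8% over 32 CpGs) and the p14ARF window by 49.0 points (61.3 against 12.3% over 17). Between HCT15 and PC3, 1 window was called, beside 16.3% of 13118 promoters: p14ARF was 48.1 points higher in HCT15 and p16INK4a 12.8 points lower. Between PC3 and DU145, 1 window was called, beside 9.93% of 13028 promoters: p16INK4a was 79.4 points higher in PC3, and p14ARF differed by 0.897 points. The windows called against DU145 were higher in HCT15 or PC3. Over all promoters, 13.8% were at least 20 points higher in HCT15 than in DU145 and 2.11% lower. The same shares were 14.3% and 2% for HCT15 against PC3, and 3.88% and 6.05% for PC3 against DU145. The differences of CDKN2B, CDKN2C and CDKN2D lay between -1.52 and 2.51 points over the 3 pairs.

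The combination of levels over the 3 lines was described by calling the mean of the other CpGs high at 50% or more. High in HCT15 and PC3 and low in DU145, as at p16INK4a, were 2.23% of the 12050 promoters with at least 5 other CpGs in each line. High in HCT15 alone, as at p14ARF, were 8.09%, and low in all 3, as at CDKN2B, CDKN2C and CDKN2D, 77.1%. The p14ARF window of HCT15 passed this limit narrowly, with a median of 38.5% and 5 of 13 other CpGs at 50% or more.

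Single CpGs were compared by 2-sided Fisher's exact tests of methylated and unmethylated reads, adjusted by Benjamini-Hochberg over all CpGs covered in both lines. The members' calls were concentrated at CDKN2A. Between HCT15 and DU145, 38 of 206 CpGs of the windows were called (18.4%), beside 16.5% of 1799022 CpGs of the genome (7.84% higher in HCT15 and 8.63% higher in DU145) and 16.1% of those in promoters. In the p16INK4a window 27 of 32 CpGs were called and in the p14ARF window 7 of 17, all higher in HCT15. Among the largest differences were those at +87 of p16INK4a, with 44 of 44 reads in HCT15 against 0 of 172 in DU145 (adjusted p = 2.37e-44, Fisher's exact test), and at -186 of p14ARF, with 45 of 45 against 0 of 158 (Fisher's exact test, adjusted p = 1.34e-43). The neighbouring CpG at +89 of p16INK4a had 22 of 22 reads against 0 of 86 (Fisher's exact test, adjusted p = 1.76e-21). Whether both reads of a pair were counted where they overlapped was not tested. If they were, p and intervals at such CpGs are too small and too narrow, here and in the other pairs.

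Between HCT15 and PC3, 14 of 229 CpGs were called (6.11%), beside 16.5% of 1789012 (12.1% higher in HCT15 and 4.41% higher in PC3) and 15.8% of those in promoters. At p14ARF 10 of 17 were higher in HCT15, the largest at -186 with 45 of 45 reads against 2 of 78 (Fisher's exact test, adjusted p = 2.69e-29). At p16INK4a 2 of 26 were higher in PC3, at -275 and -287, the partly methylated stretch of HCT15 (Fisher's exact test, adjusted p = 0.0176 and 0.000248). Between PC3 and DU145, 27 of 200 were called (13.5%), beside 18.7% of 1875371 (4.27% higher in PC3 and 14.4% higher in DU145) and 12.5% of those in promoters. At p16INK4a 24 of 26 CpGs were called, all higher in PC3, and at p14ARF 0 of 17. The call with the lowest p was at +65 of p16INK4a, with 44 of 44 reads in PC3 against 0 of 172 in DU145 (Fisher's exact test, adjusted p = 2.71e-44).

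Outside CDKN2A, the calls were few and mostly at palindrome CpGs. CDKN2B had 1 call between HCT15 and DU145 and 2 between PC3 and DU145, and all were inside palindromes. CDKN2C had 2, 2 and 1 in the pairs HCT15 with DU145, HCT15 with PC3 and PC3 with DU145. Its call outside a palindrome was at -839, with 7 of 36 reads in HCT15, 1 of 54 in DU145 and 0 of 53 in PC3 (Fisher's exact test, adjusted p = 0.0393 and 0.00954). CDKN2D had 1, at the outlying CpG at -885, lower in HCT15 than in DU145 (Fisher's exact test, adjusted p = 0.027). At the canonical starts, CDKN1A had 1 call between HCT15 and PC3 and CDKN1B 1 between PC3 and DU145, again inside palindromes, and the CDKN2C-203 start had 1 of that kind between PC3 and DU145.

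MBD-seq fragments were counted in the same windows. At p16INK4a, the kits recovered fragments in all 5 HCT15 libraries, 4 of 5 PC3 libraries and 1 of 5 DU145 libraries. The share of all promoter windows with a fragment ran, depending on the kit, from 16.25 to 97.1% in HCT15, 14.7 to 87.0% in PC3 and 3.46 to 90.7% in DU145. In HCT15 MethylMagnet gave 3 fragments, MethylCollector 5, MethylCollector Ultra 8, MethylCap 20 and MethylMiner 7. In PC3 the same kits gave 5, 2, 5, 0 and 1. In DU145 the only fragments were 3 with MethylMiner. Relative to an even spread over the genome, HCT15 had 66.1 times as many fragments with MethylMagnet (13.6 to 193), 24.7 times with MethylCollector (8.03 to 57.7), 16.0 times with MethylCollector Ultra (6.92 to 31.6), 6.70 times with MethylCap (4.09 to 10.4) and 1.25 times with MethylMiner (0.501 to 2.57). PC3 had 27.4 times with MethylMagnet (8.89 to 63.9), 30.8 times with MethylCollector (3.73 to 111) and 11.3 times with MethylCollector Ultra (3.68 to 26.5). The mean over all promoter windows was itself above an even spread. In HCT15 it was 8.50, 6.60, 4.275, 2.26 and 1.67 times with the 5 kits in the same order. In PC3 it was 4.09, 4.28 and 2.93 times with these 3 kits. The DU145 libraries of MethylMagnet, MethylCollector and MethylCollector Ultra were too small to read from a 0: they expected 0.00757 to 0.0230 fragments, so that a count of 0 still allows 130.3 to 396 times an even spread, with 3 fragments as the limit.

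MethylCap recovered 0 fragments at the p16INK4a window of PC3, which RRBS read at 98.8%. With 3 fragments as the limit, a count of 0 allows up to 4.12 times an even spread there (5.06 times by the exact Poisson interval). Of the 820 promoters of PC3 whose other CpGs averaged at least 80%, 48 (5.85%) had no MethylCap fragment, and those promoters had a median of 5 and a mean of 5.79. The p16INK4a window thus belonged to the small share that this library missed. In HCT15, MethylCap left 4 of 2166 such promoters (0.185%) without a fragment.

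At p14ARF, HCT15 was again the line in which every kit recovered fragments, 2 with MethylMagnet, 3 with MethylCollector, 11 with MethylCollector Ultra, 9 with MethylCap and 11 with MethylMiner. DU145 gave 0, 0, 0, 1 and 7 and PC3 0, 0, 0, 0 and 2 with the kits in the same order. MethylCollector Ultra reached 22.05 times an even spread in HCT15 (11.0 to 39.5). Its 0 in PC3, whose library was of similar size, allows up to 6.80 times with 3 fragments as the limit (8.365 times by the exact Poisson interval). The 7 fragments of MethylMiner in DU145, 3.12 times an even spread (1.26 to 6.43), lay in a window whose other CpGs read 0.0703%. The 8931 promoters of DU145 whose other CpGs averaged at most 10% had a mean of 2.18 times with that kit, within this interval.

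**Figure D5:**
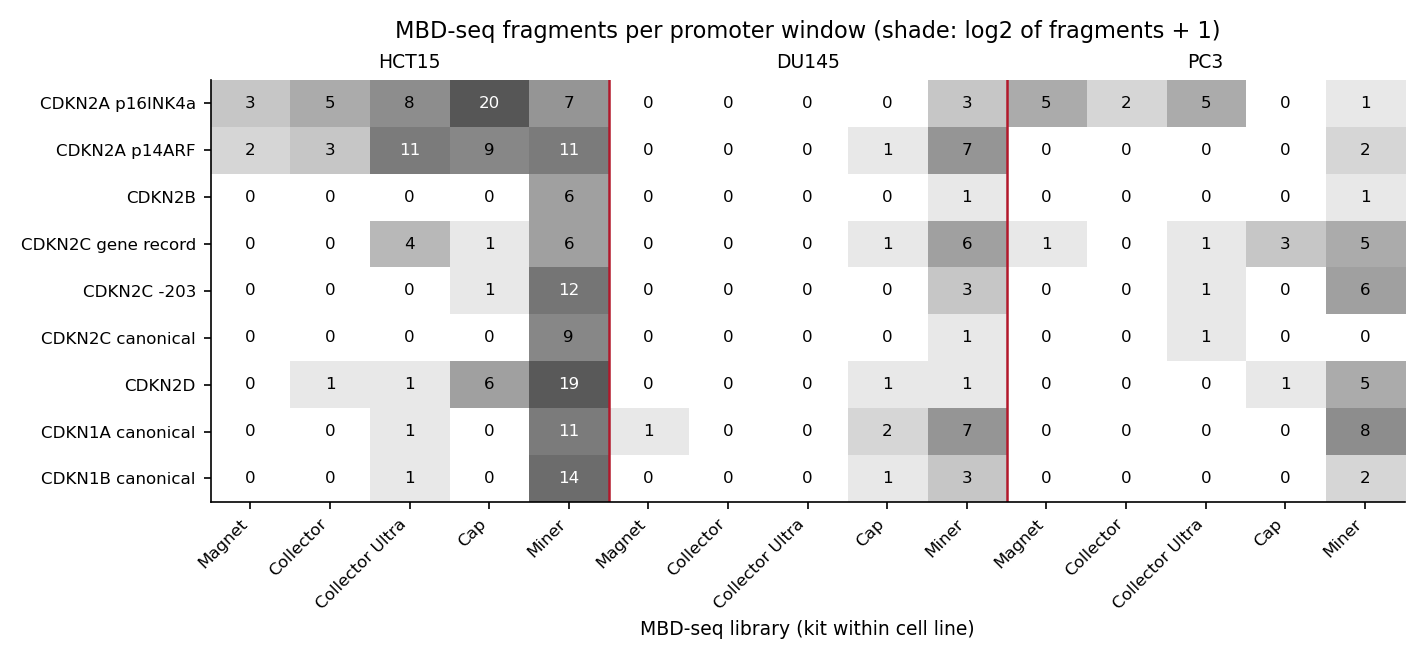
MBD-seq fragments counted in each window (rows) in each of the 15 libraries (columns, kits within cell lines; kit names without the prefix Methyl), with darker cells for more fragments on a log2 scale. At p16INK4a fragments were found with 5 kits in HCT15, 4 in PC3 and 1 in DU145, and in the unmethylated windows most fragments were those of MethylMiner.

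In the other windows most fragments were from MethylMiner. CDKN2B gave 6, 1 and 1 fragments in HCT15, DU145 and PC3, all with MethylMiner. CDKN2D had 27, 2 and 6, of which MethylMiner gave 19, 1 and 5. These were 3.38 times an even spread in HCT15 (2.04 to 5.28), 0.446 times in DU145 (0.0113 to 2.48) and 3.11 times in PC3 (1.01 to 7.265). The HCT15 interval lay above the mean of 1.80 times given below for unmethylated promoters. MethylCap gave 6 fragments there in HCT15, 2.01 times an even spread (0.738 to 4.37). The CDKN2C window with its methylated intron had 11, 7 and 10, in 3, 2 and 4 of the 5 libraries of each line. MethylMiner gave 6, 6 and 5 of these. In HCT15, MethylCollector Ultra gave 4 fragments there, 8.02 times an even spread (2.18 to 20.5), and MethylCap 1 (0.335 times). In PC3, MethylCap gave 3, which was 4.12 times an even spread (0.849 to 12.0). MethylMiner also recovered unmethylated promoters at large: it gave at least 1 fragment at 99.8% of the 8578 HCT15 promoters whose other CpGs averaged at most 10%, and the mean was 1.80 times an even spread there and 1.90 times at the 2166 promoters at 80% or more. For MethylCap these means were 0.863 and 7.25 times.

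Differences between lines were tested by an exact permutation of the 3 lines within each kit, on log2 of fragments over the even spread with 0.5 added to both, over all 1296 arrangements (smallest possible p = 0.000772), with adjustment over 20165 windows. In the exact permutation test, 0 of 7 windows had an adjusted p of 0.05 or less, as did 0% of all 20165 windows. At an unadjusted p of 0.05 or less there were 3 of 7, beside 20% of all windows. They were p16INK4a (mean log2 ratio 2.32 ± 1.15 in HCT15, -0.19 ± 0.57 in DU145 and 1.18 ± 1.94 in PC3, n = 5 kits; exact permutation p = 0.0316, adjusted p = 0.23), p14ARF (2.08 ± 0.99, 0.34 ± 0.65 and -0.52 ± 0.61; exact permutation p = 0.0131, adjusted p = 0.23) and the CDKN1A gene record (-0.30 ± 0.45, 0.30 ± 0.56 and -0.66 ± 0.44; exact permutation p = 0.00849, adjusted p = 0.23). The CDKN1A window held 9, 7 and 1 fragments in 2, 2 and 1 of the 5 libraries of each line, and the ratio of a library at 0 is set by its size alone. Its p was 0.0741 without MethylMiner (exact permutation). Without MethylMagnet, MethylCollector, MethylCollector Ultra or MethylCap the p of p16INK4a was 0.0602 to 0.116 (exact permutation), and with the libraries of each kit thinned to the smallest one, an alternative added after seeing the data, 0 of 7 windows passed (exact permutation p = 0.549 at p16INK4a, 0.238 at p14ARF and 0.0509 at CDKN1A). Cell line and library size cannot be told apart at full depth.

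Kits were compared by exchanging the 5 kit labels inside every line, over 14400 arrangements. By this exact permutation test, 0 of 7 windows had an adjusted p of 0.05 or less, beside 16.7% of all windows. At an unadjusted p of 0.05 or less there were 2 of 7, CDKN2B (exact permutation p = 0.0291) and the CDKN1B gene record (exact permutation p = 0.0212), beside 33.9% of all windows. These windows had 8 and 5 fragments in all 15 libraries, and the ratio of an empty window falls as the library grows. At p16INK4a the 3 kits MethylMagnet, MethylCollector and MethylCollector Ultra had mean log2 ratios of 1.89 ± 1.66, 1.68 ± 1.57 and 1.86 ± 1.69 (n = 3 lines), and MethylCap and MethylMiner 0.03 ± 2.19 and 0.05 ± 0.47 (exact permutation p = 0.143, adjusted p = 0.286). Its exact permutation p was 0.0451 without MethylMiner and 0.00583 with 2 kb either side. These 2 values are from alternatives, without the share of all windows that passed under them, and the test of the design did not call this window. Of the added starts, that of CDKN2C-203 passed (exact permutation p = 0.00417, adjusted p = 0.0358), with MethylMiner at 1.00 ± 0.64 and MethylCap at -1.23 ± 0.06, in a window nearly without methylation by RRBS. There MethylMiner gave 12, 3 and 6 fragments in HCT15, DU145 and PC3, and MethylCap 1, 0 and 0. The MethylCap ratios of the libraries at 0 are set by library size alone, so its SD does not measure agreement between lines.

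The list of 20 other genes included targets and partners of the inhibitors (CDKs, D and E cyclins, RB and E2F genes, SKP2 and MDM2), the third CIP and KIP gene CDKN1C, and the neighbours MTAP and DMRTA1. At the gene record starts, 19 had at least 5 CpGs covered in both lines of each pair, and DMRTA1 alone passed 20 points: it was 69.2 points higher in HCT15 than in DU145 and 63.4 points higher than in PC3. Of all promoters, 15.9% passed between HCT15 and DU145 and 16.3% between HCT15 and PC3. Between PC3 and DU145 0 of 19 passed, beside 9.93% of all promoters. Below the threshold, CDKN1C, which encodes p57KIP2, averaged 20.3% ± 33.6 over 75 CpGs in HCT15, 10.3% ± 18.6 over 78 in DU145 and 20.2% ± 25.6 over 88 in PC3, and CCND2, the gene of cyclin D2, was 12.6 points higher in HCT15 than in DU145 and 17.9 points higher than in PC3 around its canonical start.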

How the data were processed

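The authors mapped MBD-seq read pairs with Bowtie to NCBI build 37 (hg19), kept close pairs and collapsed duplicates. The deposited signal is the unscaled depth (coverage) of fragments. The RRBS files deposited hold, for each CpG with both strands summed, the counts of methylated reads and of total reads. Fragments in a window were the depth at its edge plus the rises inside. Genes came from GENCODE 44 on GRCh37, p16INK4a and p14ARF from transcripts CDKN2A-201 and CDKN2A-214. The 6 genes and the list of 20 others were chosen with earlier results of these data known. Text names every window, its highest and lowest CpGs and the largest called differences, and of the 20 genes those passing 20 points (1 gene of the list is counted but not reported here by name); CDKN1C, CCND2 and the chromosome 9 intervals were chosen after their values were seen. Tests were checked on simulated data. Alternatives changed coverage, window, threshold, pseudocount, expectation, libraries and blocks. Scripts used samtools 1.23.1, pysam 0.24.0, numba 0.67.0, scipy 1.17.1, pandas 2.3.3, numpy 2.4.6 and matplotlib 3.10.9 under Python 3.11.15.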

Additional observations from a re-analysis of the deposited data

How the results depend on the processing

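Alternatives for the window differences changed coverage, window size, pooling of reads and palindromes. The calls of p16INK4a and p14ARF as different between lines held under each of them, with no change of direction. The alternative of the canonical start used the same start for these 2 windows, so it could not test them. The p14ARF window differed by 23.3 to 81.2 points between HCT15 and the other lines. With a difference of 10 points as threshold, 2 windows in place of 1 separated HCT15 from PC3. With an adjusted p of 0.01, 9 CpGs in place of 14 separated HCT15 from PC3, and without palindrome CpGs 16 in place of 27 separated PC3 from DU145. For MBD-seq by line, windows at an unadjusted exact permutation p of 0.05 or less numbered 1 of 7 with 500 bp either side, 0 after thinning, and 2 to 3 without a kit. By kit they numbered 1 with a pseudocount of 1 and 1 without any 1 of the lines, and windows at an adjusted p of 0.05 or less 1 with that pseudocount and 3 with 500 bp, where the design had 0. Without the replicate block, which pairs libraries of 1 kit or 1 line, 3 windows by line and 2 by kit passed unadjusted and 0 adjusted, as with it. These counts are given without the share of all windows or CpGs under the same alternative, and were not read against it. The cause of these changes was not tested. The 3 DU145 libraries of 10040 to 30336 fragments limit the MBD-seq comparisons between lines.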

Other observations

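CpGs outside the palindromes were also counted in the intervals around the locus, with no test. Between the MTAP and p16INK4a windows, in HCT15 50 of 55 were at 50% or more and 0 at 10% or less, in DU145 22 of 46 and 12, and in PC3 23 of 43 and 4. Between CDKN2B and DMRTA1, 35 of 49 were at 50% or more in HCT15, 58 of 58 in DU145 and 38 of 44 in PC3.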
